A study of Populus sp. cv. 'Okanese' with 18 samples.

Results

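Among the 31033 poplar genes of the count table, 12282 had a mean level from 10 counts per 1e6 counted reads (CPM) up to a log2 CPM of 9, and the 200 of these whose CPM varied least over 18 leaf libraries are described here as candidate reference genes. They were chosen by the coefficient of variation (CV), which is the standard deviation of the CPM over the 18 libraries divided by their mean. CPM was the count of a gene multiplied by 1e6 and divided by the total count of its library, so that each value is a share of all counted reads. The chosen genes are called members below, and the 12282 genes they were drawn from are called the window. Since the measured levels themselves chose the members, their steadiness on this scale is a description and was not tested.

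The leaves came from the hybrid poplar Populus × ‘Okanese’, raised from stem cuttings in a greenhouse, and had formed during the period of the water treatments. Trees were held for 21 days at 30, 50 or 80 % gravimetric soil water content (SWCg, as a share of field capacity), labelled severe drought, moderate drought and control. Sampling was in the late morning (LM, 10 h) and in the early evening (EE, 16 h). The 6 groups are named LM30, LM50, LM80, EE30, EE50 and EE80, each held 3 libraries with the letters A, B and C, and all trees were of the 1 hybrid with no other genetic difference named.

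A reference gene is one whose transcript is taken to be the same in every sample, so that other transcripts can be expressed relative to it, as in quantitative PCR. Genes for actin, tubulin, ubiquitin, translation elongation factors and subunits of protein phosphatases are often used for this in plants. In leaves many transcripts follow the light period and the circadian clock, and a gene that is steady over water supply is not for that reason steady over the day. RNA sequencing measures shares: where a few abundant transcripts take more of the reads, all others take less, and methods such as the trimmed mean of M values (TMM) rescale each library so that most genes show no change between libraries. The table pairs the gene IDs with positions but with no names or functions, so that which members belong to the commonly used families was not determined here, and labels of tissue could not be checked against marker genes.

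The total count ranged from 17348563 to 48110546 over the libraries. The 226 genes with a mean above a log2 CPM of 9 held 37.58 to 40.86 % of the counts in the 9 LM libraries and 31.55 to 35.01 % in the 9 EE libraries, without overlap. The library size used with TMM, divided by the library total and by the geometric mean of that ratio, was 0.874 to 0.992 in LM and 1.057 to 1.17 in EE. This factor holds the TMM factor together with the removal of the most abundant genes and of genes with few reads from the library size. LM30 B stood apart from the other LM libraries, with a factor of 0.992 where those lay at or below 0.914, and with 37.58 % of its counts in the most abundant genes. Its members lay a median of 4.43 % above their means over all libraries, against −2.52 to 1.41 % in the others. The column names of the LM libraries carried 1 number and those of the EE libraries another, and since what these numbers stand for is not stated, time of day and anything they mark cannot be told apart.

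The CV of the members ran from 2.683 to 5.741 % with a median of 5.207 %, where the median of the window was 18.98 %. Without LM30 B the median CV of the members was 4.97 %. The highest library exceeded the lowest by a median factor of 1.207 (range 1.088 to 1.304), and for 3 in 4 members by at most 1.235. Counting error alone would give the members a median CV of 2.869 %, and its square was a median of 32.44 % of their squared CV (3.666 % in the window). For 1102 genes of the window, the CV from counting alone was at or above the limit of 5.741 %, so that genes with few reads could hardly enter the list. Only 9 of the 4153 window genes between 10 and 20 CPM were members (0.217 %), against 94 of 4828 between 20 and 50 CPM (1.95 %) and 68 of 2034 between 50 and 100 CPM (3.34 %). At the higher levels, 25 of 867 genes between 100 and 200 CPM (2.88 %) and 4 of 400 above 200 CPM (1.0 %) were members.

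**Figure D1:**
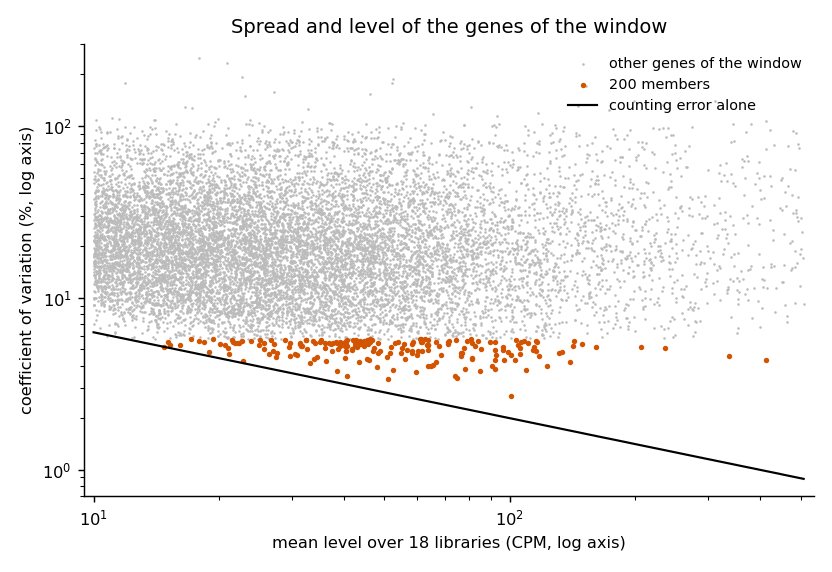
Mean level over 18 libraries (CPM, log axis) against the coefficient of variation (%, log axis) for the 12282 genes of the window. Orange points are the 200 members, which lie at or below 5.741 %, grey points the other genes, and the line is the variation that counting error alone would give at that level; the line meets the members at the low end of their levels.

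The member with the lowest CV was Potri.018G127200, on the minus strand of chromosome 18 at 13814057 to 13818173 in the P. trichocarpa v4.1 assembly, with 5 exon blocks and a CV of 2.683 %. Its level was 96.98, 105.5 and 97.59 CPM in LM30, 103.9, 98.42 and 99.35 CPM in LM50, and 102.7, 97.53 and 100.1 CPM in LM80. The evening values were 99.56, 101.5 and 97.86 CPM in EE30, 99.29, 98.95 and 104.6 CPM in EE50, and 99.97, 101.4 and 104.4 CPM in EE80. All 6 groups overlapped, and their means spanned a factor of 1.023. The counting CV of this gene was 1.985 %.

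Potri.005G083800, on chromosome 5 at 5772574 to 5784933, followed with a CV of 3.368 %. It stood at 50.31, 53.22 and 51.94 CPM in LM30, 48.88, 48.54 and 49.8 CPM in LM50, 50.34, 47.74 and 51.01 CPM in LM80, 54.16, 51.68 and 50.59 CPM in EE30, 50.5, 53.0 and 53.04 CPM in EE50 and 51.93, 51.42 and 52.15 CPM in EE80. The lowest library was LM80 B and the highest EE30 A. LM50, at 49.07 ± 0.651 CPM (SD, n = 3), lay below all 3 EE groups without overlap, a difference of a few percent.

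Potri.013G068300, on chromosome 13 at 5374695 to 5382579, had a CV of 3.415 % and its highest value, 82.06 CPM, in LM30 B. The other libraries of LM30 gave 78.26 and 74.24 CPM, and those of LM50 gave 76.0, 74.27 and 73.4 CPM. In LM80 it was 75.1, 73.68 and 72.1 CPM, in EE30 74.38, 76.63 and 71.65 CPM, in EE50 72.58, 74.98 and 74.21 CPM, and in EE80 74.44, 71.01 and 74.13 CPM. All groups overlapped, while LM30 A and LM30 B stood above every library of the remaining groups.

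Potri.003G056400, on chromosome 3 at 8258821 to 8262662, had 2 exon blocks and a CV of 3.488 %, close to the 3.123 % that counting would give. Its group means lay between 39.81 ± 0.715 CPM in LM30 and 41.05 ± 2.9 CPM in EE50 (SD, n = 3). Potri.004G177500, on chromosome 4 at 19241596 to 19246974, was highest in EE50, at 77.77 ± 3.1 CPM, and lowest in LM80, at 72.65 ± 3.78 CPM. Potri.011G060800, on chromosome 11 at 5053623 to 5055773, was lowest in EE30, at 56.81 ± 0.678 CPM, and highest in LM50, at 61.54 ± 1.07 CPM, and these groups did not overlap. The plot of the 6 lowest members by group shows these values.

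**Figure D2:**
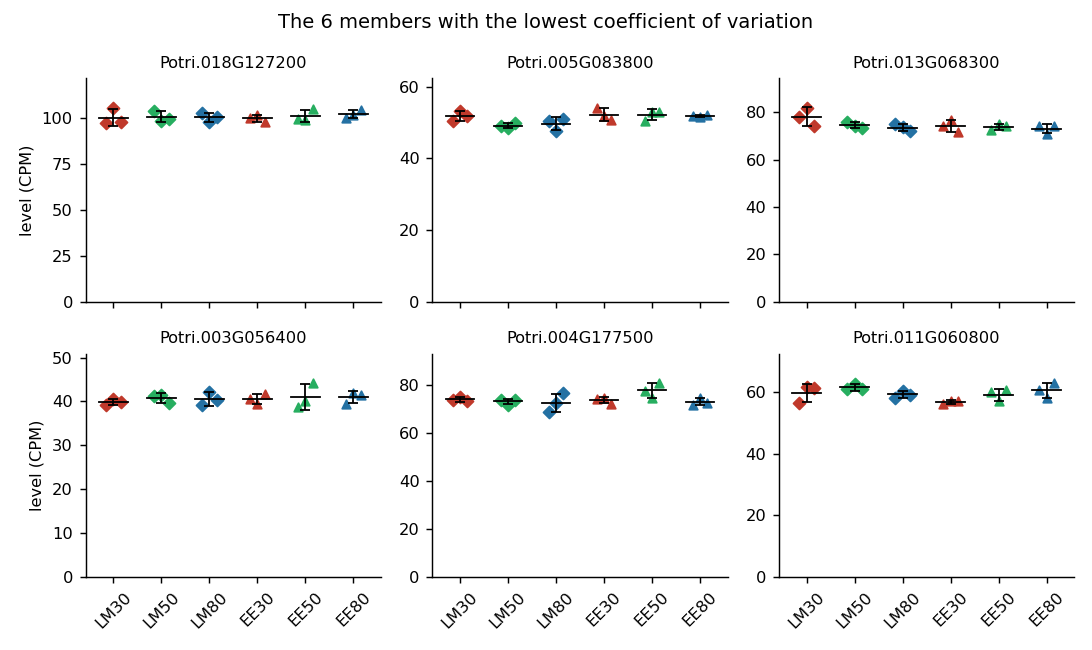
Level (CPM) in each of 18 libraries for the 6 members with the lowest coefficient of variation, by group. Diamonds are late morning and triangles early evening libraries, red is 30, green 50 and blue 80 % SWCg, and bars are the mean ± SD of 3 libraries; Potri.018G127200 stays between 96.98 and 105.5 CPM.

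The next 4 members reached CVs of 3.721 to 3.792 %. Potri.001G307400, on chromosome 1 at 31716448 to 31723603, was lowest in EE30, with 79.75, 77.87 and 83.0 CPM, and each of the other 5 groups had a mean of 85.36 to 86.56 CPM. Potri.009G165200, on chromosome 9 at 12664467 to 12667038, was 39.5 ± 0.912 CPM over the LM libraries and 37.34 ± 0.993 CPM over the EE libraries (SD, n = 9). Potri.006G198300, on chromosome 6 at 20597841 to 20609508, had 32 exon blocks, the highest number among the members, and ranged from 104.0 to 117.4 CPM. Potri.011G132400, on chromosome 11 at 16594278 to 16597600, ranged from 49.85 to 57.49 CPM with the highest value in LM30 B. The geometric mean of these 10 lowest members was 63.06 to 67.89 CPM over the 18 libraries, the highest again in LM30 B.

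At the edge of the list, Potri.003G097700 (5.736 %), Potri.013G105500 (5.741 %) and Potri.002G255900 (5.741 %) were the last members. Potri.015G013800 (5.746 %), Potri.018G024600 (5.746 %) and Potri.009G160200 (5.748 %) were the first genes left out. The rule thus parts genes whose CVs differ by far less than the spread among libraries.

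The members with the largest share of reads were Potri.001G317600, Potri.001G067800 and Potri.015G037800. Potri.001G317600, on chromosome 1 at 32766777 to 32773195, was 408.6 ± 3.33 CPM in LM30, 414.5 ± 0.767 CPM in LM50, 404.4 ± 22.0 CPM in LM80, 425.0 ± 24.9 CPM in EE30, 413.5 ± 20.7 CPM in EE50 and 408.6 ± 27.6 CPM in EE80 (SD, n = 3). Its spread within LM30 and LM50 was far below that in the other groups, and in each of those others it was highest in library A and lowest in library C. Potri.001G067800, on chromosome 1 at 5104020 to 5108835, ranged from 307.5 to 361.5 CPM, and Potri.015G037800, on chromosome 15 at 3260308 to 3265578, from 209.1 CPM in LM30 B to 263.1 CPM in EE80 A. The latter gene was thus lowest in LM30 B, the library in which the median member lay highest.

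Per exonic length, as transcripts per 1e6 transcripts (TPM), the mean level of Potri.001G317600 was 178.2 TPM, that of Potri.001G067800 212.8 TPM and that of Potri.015G037800 123.0 TPM. Potri.018G127200, at 114.7 TPM, was thus near Potri.015G037800 in level although its share of reads was smaller, and it lay below Potri.001G317600 and Potri.001G067800. The median level of the members was 28.21 TPM, with a range of 6.516 to 378.0 TPM, beside a median of 23.01 TPM in the window.

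The members with the smallest share of reads were Potri.014G099300, at 12.87 to 15.89 CPM, Potri.004G219100, at 13.33 to 16.43 CPM, and Potri.005G227700, at 14.14 to 17.12 CPM. They lie on chromosome 14 at 6512192 to 6515119, on chromosome 4 at 22485242 to 22492435 and on chromosome 5 at 22796239 to 22800352. Their CVs of 5.145, 5.525 and 5.282 % were at or close to the 5.174, 5.118 and 5.09 % of counting error, so that at this depth variation beyond counting was hardly detectable in them.

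The name of steady over both time of day and water held only on the scale of library totals. With TMM it was the part about time of day that was lost, as given below. With TMM factors, 0 of the 200 members were among the 200 genes of lowest CV, and with the size factors of DESeq2 0 of 200 were as well. On the TMM scale the members ranked between 845 and 5573 of 12225 genes (median 3418), and their median CV was 10.92 % (range 6.901 to 15.05 %). With DESeq2 factors the median CV was 12.07 %. Group means stayed within a factor of 1.1 for 133 of the 200 members on library totals and for 0 of 200 on the TMM scale, where 458 genes of the window did. These counts follow largely from the choice on library totals. The median factor spanned by the group means was 1.087 in the members and 1.513 in the window on library totals. With TMM it was 1.273 and 1.424. The members are therefore described as genes with a steady share of counted reads. Which scale follows the amount of transcript per leaf or per cell cannot be told from these counts, since no RNA of known amount is described as added to the samples.

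The difference between the scales lay between the times of day. On the TMM scale Potri.018G127200 was 110.6 ± 2.66 CPM in LM, with a range of 106.7 to 114.4 CPM, and 91.97 ± 2.61 CPM in EE, with a range of 87.73 to 96.3 CPM (SD, n = 9 libraries at each time). On library totals the same gene was 100.2 ± 3.09 CPM in LM and 100.8 ± 2.38 CPM in EE. The 9 LM and 9 EE libraries overlapped fully on library totals and did not overlap on the TMM scale. In the edgeR quasi-likelihood fit with TMM factors its log2 difference between EE80 and LM80 was −0.31 (SE 0.0558, adjusted p = 0.000162), and with library totals it was 0.03.

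All 200 members were lower in EE than in LM at each water level on the TMM scale. At 80 % SWCg the median log2 difference was −0.31 (range −0.49 to −0.17), which is 19.2 % lower in EE. At 50 % SWCg it was −0.27 (range −0.45 to −0.12), and at 30 % SWCg −0.23 (range −0.43 to −0.03). In the same fit all members but 1 passed an adjusted p of 0.05 at 80 % SWCg, where 51.8 % of the 23700 genes tested did so. At 50 % SWCg 183 passed (52.9 % of all genes) and at 30 % SWCg 150 (53.4 % of all genes). Each of the 200 passed in 1 or more of the 3 comparisons and 143 in all 3, and 67 % of all genes passed in 1 or more. As the same libraries chose the members, nothing is read from these counts about the members against other genes.

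Potri.011G132400 had the lowest p among the members between the times at 80 % SWCg. Its values on library totals were 54.33, 53.23 and 54.44 CPM in LM80 and 50.01, 50.03 and 52.54 CPM in EE80, so that it was lower in EE80 without overlap on that scale as well. With TMM its log2 difference was −0.43 (SE 0.0525, adjusted p = 3.35e-06).

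With library totals in place of TMM in the same fit, 13 of the 200 members passed between the times, 8 of them higher and 5 lower in EE, where 73.6 % of all genes passed. The median log2 differences of the members were then 0.03, 0.01 and −0.02 at 80, 50 and 30 % SWCg. Over all genes tested the median log2 difference between EE80 and LM80 was 0.37 on library totals and 0.03 with TMM, and the calls were 11809 higher and 2815 lower in EE80 with library totals against 6476 higher and 5807 lower with TMM. That the members lay below the median gene on both scales follows from their choice and is no result. All 9 EE libraries lay below all 9 LM libraries for 149 of the 200 members on the TMM scale (74.5 %) and for 23.1 % of the window, whereas on library totals this held for 0 of 200 members and 1502 genes of the window. The opposite order, with all EE above all LM libraries, was found for 0 of 200 members on either scale, for 36.9 % of the window on library totals and for 20.2 % with TMM.

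**Figure D3:**
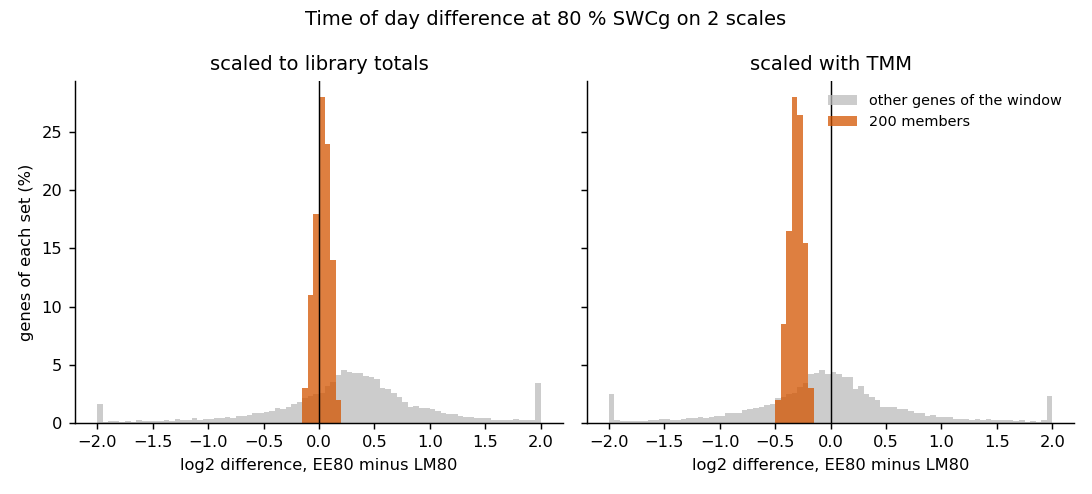
Log2 difference between EE80 and LM80 in bins of 0.05, as a percentage of the 200 members (orange) and of the other genes of the window (grey), scaled to library totals on the left and with TMM on the right; values beyond the axis are in the outermost bins. The members centre on 0.03 on the left and on −0.31 on the right, with the same narrow width.

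A ratio of 2 genes within a library does not depend on the scaling of that library. The 200 genes of lowest CV on the TMM scale, called the TMM list here, were set beside the members in this way. The log2 ratio of the geometric mean of the members to that of the TMM list was 0.431 to 0.524 in the LM libraries and 0.183 to 0.264 in the EE libraries. The ranges did not overlap, which follows from how the lists were chosen, and both lists cannot be steady over the day at once. The geometric mean of the members was 50.34 to 53.47 CPM over all libraries, while that of the TMM list was 35.13 to 39.66 CPM in LM and 41.92 to 46.0 CPM in EE.

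**Figure D4:**
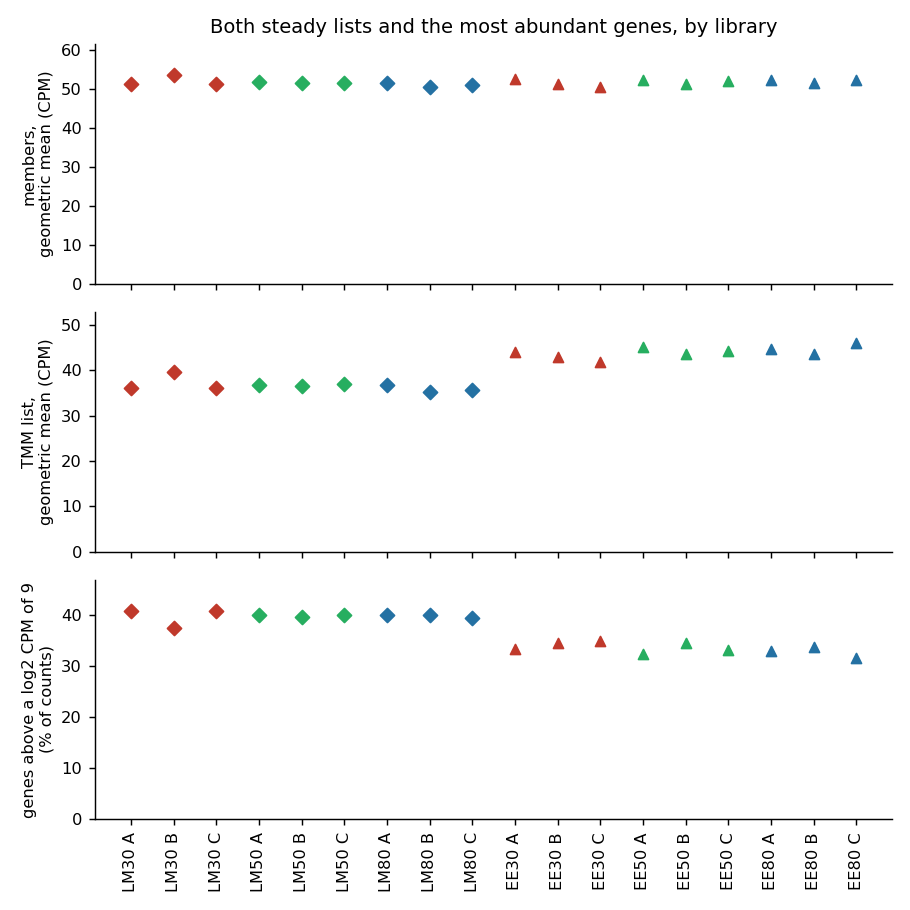
Geometric mean level (CPM) of the 200 members and of the 200 genes of the TMM list, and the percentage of counts in genes with a mean above a log2 CPM of 9, in each of 18 libraries; diamonds are late morning and triangles early evening, red is 30, green 50 and blue 80 % SWCg. The members stay at 50.34 to 53.47 CPM while the TMM list is higher and the most abundant genes are lower in every EE library than in every LM library.

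The TMM list had a median CV of 4.801 % on its own scale and of 10.92 % on library totals, where all 200 of its genes were higher in EE at each water level. Its first gene, Potri.003G126900 on chromosome 3 at 14632706 to 14640329, was 45.84 ± 1.572 CPM in LM and 54.89 ± 1.756 CPM in EE (SD, n = 9), and on the TMM scale 50.59 and 50.06 CPM. With TMM 12 of the 200 genes of that list passed in 1 or more of the time comparisons, beside 67 % of all genes tested. As that list was chosen for low CV on this scale, few calls in it follow from the choice. The TMM list and the list from DESeq2 size factors, each of 200 genes, had 150 genes in common.

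That ratios vary less within a list than between the lists also follows from the choice, so these values are a description only. The standard deviation over the 18 libraries of the log2 ratio of 2 members had a median of 0.0984, that of 2 genes of the TMM list 0.0928, and that of a member and a gene of the TMM list 0.1644. Averaged over its ratios to all other members, this measure (the M value of the geNorm method) was lowest for Potri.018G127200, at 0.0756, and ran up to 0.122. The genes whose pattern was most like that of Potri.018G127200 over the 18 libraries were Potri.009G014700, Potri.010G031900, Potri.018G020400, Potri.009G076200 and Potri.013G068300, with standard deviations of the log2 ratio of 0.045, 0.0474, 0.0482, 0.0487 and 0.05. All 5 were members themselves, with ranks of 11, 17, 21, 27 and 3 by CV.

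Between water levels, no member passed in any of the 4 comparisons of 30 or 50 % with 80 % SWCg in the edgeR fit with TMM. The same libraries chose the members for low variation, so few calls among them follow largely from the choice. Nothing is read from these counts about the members against other genes. At an unadjusted p under 0.05, 8 members (4.0 %) differed between LM30 and LM80, beside 15.1 % of all genes tested. Between LM50 and LM80 it was 0 members (0.0 %) beside 1.97 %. For EE30 and EE80 it was 16 members (8.0 %) beside 17.6 %, and for EE50 and EE80 2 members (1.0 %) beside 6.38 %. Of all genes tested the share that passed was 0.0675 % for LM30 and LM80, 0 % for LM50 and LM80, 1.94 % for EE30 and EE80, 0.0127 % for EE50 and EE80 and 1.98 % in 1 or more of them. The 469 genes behind the last share varied when 1 library was left out. They fell to 73 without EE80 A, 88 without EE30 A, 91 without EE80 C, 133 without EE30 B and 309 without LM50 A. They rose to 623 without EE30 C, 693 without EE80 B, 738 without LM30 B and 859 without LM80 A. Without any other library they were 323 to 477. Each of these fits had 1 library fewer in a group, and the cause of the shifts was not tested. The share also depended on the fit. With the robust dispersion estimate, which the study's methods name, and a likelihood ratio test, 2071 genes (8.74 %) and 0 members passed. In the quasi-likelihood fit with TMM the median log2 differences of the members were −0.03, −0.02, 0.06 and 0.02, in the order of the comparisons above. On library totals they were 0.03, 0.02, −0.02 and −0.01, so that the sign depended on the scaling. The largest sizes of a log2 difference of a member were 0.23, 0.14, 0.24 and 0.17 with TMM, at a median SE of about 0.069. No member passed for a difference of the time effect between 30 and 80 % SWCg, with 18 at an unadjusted p under 0.05 (9 %, beside 8.61 % of all genes), and 0 of all genes tested passed either, so that this count is near the background.

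Potri.017G047600, on chromosome 17 at 3365764 to 3388192, came closest to the threshold. It was 61.51, 60.07 and 58.82 CPM in EE30 and 55.63, 54.59 and 53.86 CPM in EE80, without overlap, at a log2 difference of 0.21 with TMM (adjusted p = 0.0632 in edgeR and 0.0121 in DESeq2). In LM30 it was 53.81, 57.49 and 51.57 CPM, which overlapped with the 54.84, 50.8 and 53.15 CPM of LM80. DESeq2 also called Potri.006G047000 between LM30 and LM80, at −0.24 on the log2 scale (adjusted p = 0.0368 in DESeq2 and 0.141 in edgeR). Both genes are named because of these values.

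The sum of squares of the log2 CPM was split into the time of day (1 degree of freedom), the water level within a time (4) and the replicates (12). The members were chosen for low variation over these libraries, so their split is a description only. On library totals the replicates took 61.7 % of the sum over the members, water 24.8 % and time 13.4 %. Over the window, time took 85.3 %, water 5.15 % and replicates 9.55 %. On the TMM scale the members gave 79.4 % for time, 6.28 % for water and 14.3 % for replicates, near the values of the window (84.7, 5.36 and 9.96 %).

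Values that the choice did not use were had by choosing 200 genes on 17 libraries and reading them in the library left out. The other libraries of its group took part in the choice, so no time of day or water level was new. Deviations below those of the window follow in part from this. On library totals the median absolute deviation of the 200 genes from their mean in the other libraries was 3.129 to 9.743 % over the 18 libraries, with a median of 4.594 %. For all genes of the window it was 13.749 to 18.943 %, with a median of 17.16 %. The highest value, 9.743 %, came from LM30 B, in which 103 of the 200 genes lay within 10 % of their mean, while the median library had 176 within 10 %. Genes chosen without LM30 B lay a median of 6.961 % above their mean in it. On the TMM scale, with genes chosen on that scale, the values were 3.214 to 5.923 % with a median of 4.235 %, and LM30 B was again the highest. The TMM factors were taken from all 18 libraries at once, so on that scale the library left out was not fully unused.

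**Figure D5:**
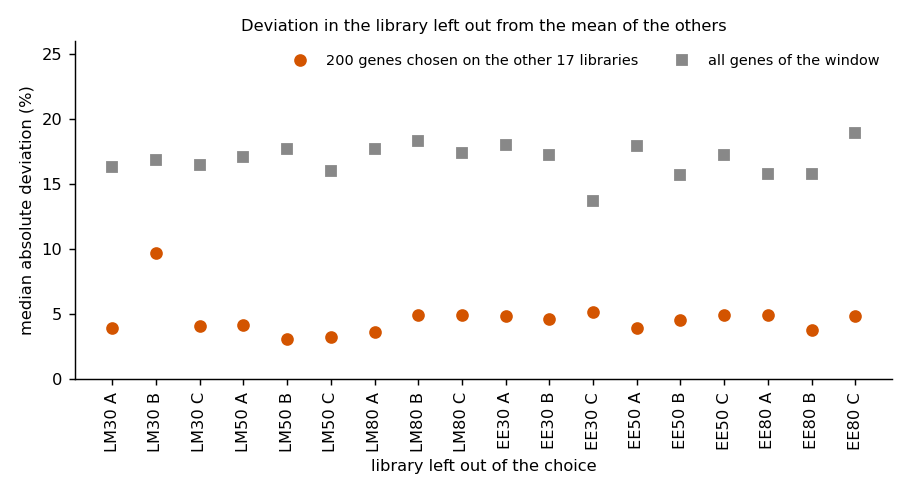
Median absolute deviation (%) of CPM in each library from the mean of the other 17, for the 200 genes chosen on those 17 (orange circles) and for all genes of the window (grey squares), on library totals. The chosen genes lie between 3.129 and 9.743 %, the highest in LM30 B, and below the window in all 18 libraries.

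Of the members, 147 to 188 stayed in the list when 1 library was left out, with the lowest number without LM30 B, and 129 were in all 18 such lists. The 10 members of lowest CV were in each of the 18 lists. This follows largely from their choice, since each list used 17 of the same 18 libraries.

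A choice made at 1 time of day carried over to the other only in part. The 200 genes of lowest CV in the 9 LM libraries had a median CV of 3.077 % there and of 5.979 % in the EE libraries, where the window had 8.798 %. Those chosen in EE had a median CV of 3.104 % there and of 6.37 % in LM, where the window had 9.274 %. Their levels moved between the times by a median absolute log2 difference of 0.25 and 0.32, beside 0.39 and 0.43 in the window of each choice. The LM list held 36 of the members and the EE list 27.

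Only 13 genes were in both of these lists (6.5 % of each), and 6 of the 13 were members. These 6, named after their values were seen, were Potri.018G127200, Potri.005G083800, Potri.009G165200, Potri.009G058100, Potri.015G076100 and Potri.001G349400. Their CVs lay between 2.31 and 3.41 % in LM and between 2.3 and 3.53 % in EE, and their log2 differences between the times on library totals ran from −0.11 to 0.05. By contrast Potri.007G060900, which is not a member, had CVs of 2.89 % in LM and 2.75 % in EE but a mean of 27.15 CPM in LM and 69.05 CPM in EE. A gene could thus be steady within each time of day, over all 3 water levels, and differ widely between the times.

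The members were longer than the genes of the window, a property the rule did not use directly. Longer genes can collect more reads and so less counting error, and the median level was 48.1 CPM in the members and 28.12 CPM in the window. Whether level accounts for the length of the members was not tested. Their exonic length had a median of 2990 bases against 2186 in the window, their span in the genome 5944 against 4364 bases, and they had a median of 9 exon blocks against 6. Of the members 11 had a single exon block (5.5 %, beside 9.28 % of the window), among them Potri.014G099300 and Potri.005G227700 from the low end of the levels. The genes of the TMM list had medians of 2589 bases of exon and 10 exon blocks.

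All 200 members lay on the 19 chromosomes, with 21 on chromosome 1 and 3 on chromosome 19, and 108 were on the plus strand. As a share of the window they ranged from 0.909 % on chromosome 16 to 2.962 % on chromosome 9. Members were next to each other on the chromosome in 2 pairs. Potri.014G016900 and Potri.014G017000 on chromosome 14 had a standard deviation of the log2 ratio of 0.0615, and Potri.013G051400 and Potri.013G051500 on chromosome 13 had 0.1043, close to the median of 0.0984 for 2 members.

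Exons of 7 members overlapped those of another gene (3.5 %, beside 6.2 % of the window), and for 5 of them the other gene was on the opposite strand. Per the file header reads were counted without regard to strand, so the levels of these genes may include, or lack, reads shared with the neighbour. Of the members named above only Potri.009G058100 was among the 7. Reads that matched several places were not counted, so levels of members with near-identical copies are uncertain, and such copies were not searched for here.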

How the data were processed

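RNA was sequenced from leaves of the 6 groups, with 3 libraries in each. The authors trimmed reads with Trimmomatic, used HISAT2 2.2.1 for alignment to P. trichocarpa v4.1, wrote alignments with SAMtools 1.3.1 and obtained counts per gene from featureCounts 2.0.1, per the labels and the file header. For Trimmomatic no version was given. The deposited values are raw counts without normalization, and all columns of the table were used. Groups came from the sample labels.

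CPM, CV and TPM (from the exonic length in the table) were computed with Python 3.11.15, numpy 2.4.6 and pandas 2.3.3, and plots were made with matplotlib 3.10.9. Genes whose average log2 CPM lay between −2 and 9 entered 1 model of 6 groups in edgeR 4.0.16 (R 4.3.3) with TMM factors, quasi-likelihood F tests and Benjamini–Hochberg adjustment over the 23700 genes tested, with calls at an adjusted p of 0.05. With TMM, library sizes were first recomputed from the genes within these limits. The fit was tested on simulated data. Group differences were also taken with DESeq2 1.42.0.

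Named genes were the 10 members of lowest CV, the 3 of highest and 3 of lowest mean CPM, the 3 on either side of the limit, the member of lowest p between the times at 80 % SWCg, and the 5 genes most like the first member. The rule asked for 5 genes by p, of which 1 is named because IDs had no names here. Outside this rule, and chosen after their values were seen, are Potri.017G047600, Potri.006G047000, Potri.013G089500, Potri.006G096700, Potri.007G060900, Potri.003G126900, the genes steady at both times and the neighbouring pairs. The members, lists and tests were chosen with earlier results of these data known. Families of common reference genes, functional groups, promoter motifs and tissue markers were planned and not analysed here.

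The meaning of the replicate letters is not stated. Deviations from the group means, for libraries with the same letter, correlated at 0.206, 0.197 and 0.378 between EE30 and EE80, and every other comparison had a letter at or below 0.1. A fit with the letter as a block was therefore run as well. Replicates differed by more than counting error (chi-square per gene of 5.18 to 38.1), so no library was a copy of another.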

Additional observations from a re-analysis of the deposited data

How the results depend on the processing

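Of the 200 members, 0 were kept with TMM factors, 0 with DESeq2 size factors, 105 when the median absolute deviation over the median replaced the CV, 129 when counting error was subtracted from the squared CV, 97 when the means of the 6 groups were used, 36 with LM libraries only and 27 with EE libraries only. When EE30 C, LM30 B and LM80 A were left out together, a choice made after seeing the data, 131 were kept. Leaving out 1 library kept 147 to 188. The SD of log2 CPM kept 188, a lower limit of 1 CPM with no upper limit kept 195, and 191 were kept with a lower limit of 20 CPM. The median CV of the members was 10.92 % with TMM factors, 12.07 % with DESeq2 size factors and 4.97 to 5.247 % with 1 library left out. Members called between the times numbered 13 with library totals, where 73.6 % of all genes passed. They numbered 196 to 200 with 1 library left out, where 15114 to 16470 genes in all were called. With the robust dispersion and likelihood ratio test they were 194 (16355 of 23700 genes in all), and with no filter on low counts 196 (16018 of 29198). Members called between water levels numbered 2 with DESeq2 (6.03 % of all genes) and 0 to 1 with 1 library left out, the 1 being Potri.013G089500 between EE30 and EE80 without EE80 A (adjusted p = 0.0452 in edgeR, 0.104 with all libraries), where 73 genes in all were called. They numbered 1 without the 3 libraries, Potri.006G096700 (adjusted p = 0.0442, 0.114 with all), where 1830 genes in all were called. The 469 genes called between water levels became 902 with the replicate block and 2071 with the robust dispersion and likelihood ratio test. The cause of these shifts was not tested. With a replicate block the members called were 200 between times and 0 between water levels, as without it. Over all genes tested the block changed the calls, for time from 15877 to 16413 and for water as given above. As the libraries are not stated to come from separate trees, p-values reflect only how far libraries of a group differ, which may be technical. Counting error limits the members under 20 CPM. The planned values for common reference families, functional groups, promoter motifs and tissue markers were not run, since the IDs had no descriptions here.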
